A study of Rattus norvegicus with 12 samples.

Results

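The transcripts ENSRNOT00000074804.2 and ENSRNOT00000017708.5 are 2 of the 31715 Ensembl transcripts quantified in rat testis. They were selected on their measured values, because the first had an estimated count of 0 in 5 of the 6 libraries of the 14-day and 21-day stress groups while the second was high in those libraries. The deposited tables give the first a length of 643 bases and the second a length of 657 bases, and they are named below by these lengths. The tables hold transcript identifiers without gene names, positions or sequences, so neither transcript can be given a gene, a place in the genome or a function here.

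The study compared testes of SD rats, all labelled with an age of 8 weeks, after 3, 14 or 21 days of RS+IS, a daily restraint followed by swimming in ice water, with testes of control rats. Control rats moved freely in their cages, but they went without food and water over the hours in which the others were stressed, so the groups shared that deprivation. Total RNA of frozen testis was taken up in Trizol, ribosomal RNA was removed, and 3 libraries were made in each of the 4 groups. The methods give this age for the animals before housing and stress, and the age at sampling is not stated. If all animals began at this age, those stressed for more days were older at sampling. Age then cannot be told apart from the length of stress. The paper describes control groups at each time point. The labels do not say for how many days the 3 control animals were kept, and they do not tie libraries of different groups to each other.

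A gene often gives several transcripts that differ in their starts, exons or ends, and related genes can give transcripts of nearly the same sequence. A short read that fits several such transcripts has to be divided among them, and a quantifier does this by estimation, which gives estimated counts that need not be whole numbers. The testis holds an unusually large variety of transcripts, most of them made in germ cells as these pass from spermatogonia through meiosis to spermatids. Because whole tissue was sequenced, a transcript carried by fewer cells and a transcript with less RNA per cell cannot be told apart.

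The 12 libraries held between 23908048 and 29404590 estimated counts each. Markers of testis were high in all of them: Tnp1, a transition protein of spermatid chromatin, was at 16783 to 24862 TPM, Acrv1, an acrosomal protein, at 158 to 187 TPM, and Sycp3, a part of the synaptonemal complex of meiotic cells, at 254 to 350 TPM. TPM is the estimated count per effective length, scaled to the same total in each library. Replicates of a group differed by more than counting noise, with chi-square values per degree of freedom of 9.21 to 32.5, so none was counted as a repeat of another. Nothing says whether they came from separate cages or preparation days, and p-values below measure only the spread between these samples.

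The 643-base transcript had 2439.94, 2964 and 3248 estimated counts in control replicates 1 to 3, and 2997, 2807 and 3483 in 3-day stress replicates 1 to 3. After 14 days it was at 0 in replicates 1 and 2 and at 2612 in replicate 3. After 21 days it was at 0 in all 3 replicates. The transcript was therefore either at a count close to that of control or at exactly 0, with no library in between, and the 14-day stress group held both states.

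The 657-base transcript had 738, 514 and 617 estimated counts in control replicates 1 to 3, and 499.7, 1003 and 442 in 3-day stress replicates 1 to 3. The 14-day stress replicates held 3328, 3762 and 428 estimated counts. The 21-day stress replicates held 3135, 3886 and 3095. It was present in every library, low wherever the 643-base transcript was present and high in each of the 5 libraries where that transcript was at 0. The 14-day stress replicate 3, with 428 counts, had the lowest estimated count of the 657-base transcript in the smallest library, and it lay with the control and 3-day stress libraries for both members. Scaled to library size, 3-day stress replicate 3 was lower.

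The summed estimated count of both transcripts was 3178, 3478 and 3865 in the control replicates and 3496, 3810.0 and 3925 in the 3-day stress replicates. It was 3328, 3762 and 3040.0 in the 14-day stress replicates and 3135, 3886 and 3095 in the 21-day stress replicates. The sums of the 4 groups overlapped, and the gap left where the 643-base transcript was at 0 was matched by the count of the 657-base transcript.

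Relative to library size (CPM, estimated counts scaled to library size with TMM factors), the 643-base transcript was at 87.4, 115 and 119 CPM in the control replicates, 113, 94.2 and 124 CPM in the 3-day stress replicates and 109 CPM in 14-day stress replicate 3. The group means were 107 ± 17.3 CPM in control, 111 ± 15.2 CPM in 3-day stress and 36.5 ± 63.2 CPM in 14-day stress (SD, n = 3 each), with 0 in every 21-day stress library. The mean of the 14-day stress group described none of its animals, as its SD was larger than the mean. Without replicate 3 the 14-day mean was 0 (n = 2). In the order 3-day stress, control, 14-day stress, 21-day stress, each group overlapped with the next, the 14-day stress group with control through replicate 3 and with 21-day stress through its 2 libraries at 0.

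A count of 0 sets a limit rather than an absence. Taking 3 counts per library as the level that a count of 0 allows, the limit lay between 0.101 and 0.126 CPM over the 12 libraries. Against this floor the estimated level of the 643-base transcript was at least 912-fold lower in the 21-day stress group than the control mean. The floor covers counting error only. It leaves out the error of dividing reads between transcripts, so it does not bound the true level. The contrast of 21-day stress with control was part of the choice of the transcripts and carries no test.

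The 657-base transcript was at 26.4, 19.96 and 22.6 CPM in the control replicates and at 18.8, 33.7 and 15.8 CPM in the 3-day stress replicates. It was at 134, 133 and 17.9 CPM in the 14-day stress replicates and at 127, 145 and 123 CPM in the 21-day stress replicates. The group means were 23.0 ± 3.25, 22.8 ± 9.57, 95.1 ± 66.9 and 132 ± 11.6 CPM in the same order (SD, n = 3 each). Against control, the mean was 4.14-fold after 14 days and 5.72-fold after 21 days, again as a description of values used in the choice. Without 14-day stress replicate 3 the 14-day mean was 134 ± 0.633 CPM (SD, n = 2), inside the range of the 21-day libraries.

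**Figure D1:**
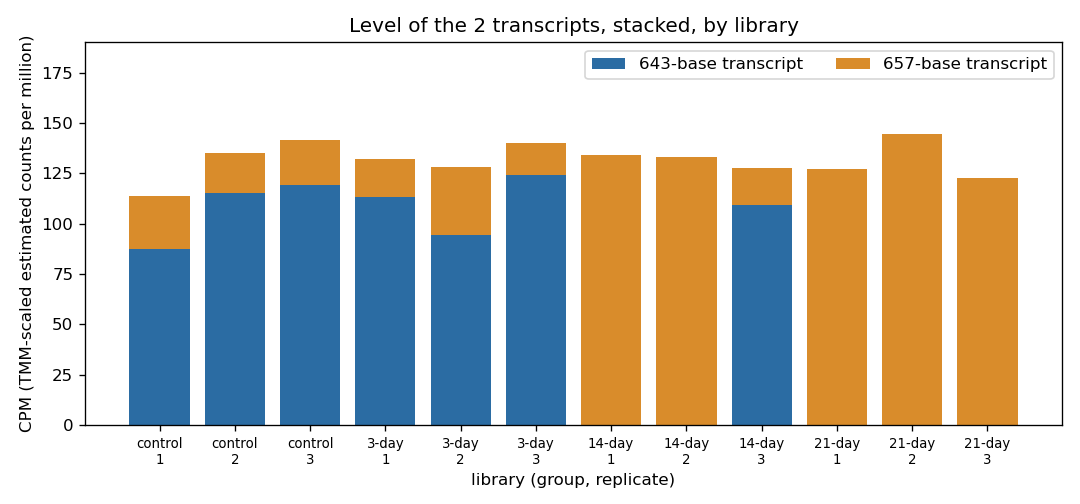
CPM (estimated counts relative to TMM-scaled library size, linear axis from 0) of the 643-base and the 657-base transcript, stacked for each of the 12 libraries, so that the height of a bar is the sum of both. The sum stays between 113.8 and 144.7 CPM, while the 643-base part is missing in 14-day stress replicates 1 and 2 and in all 3 of the 21-day stress replicates.

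The summed level of both transcripts was nearly level over the study. It ran from 113.8 CPM in control replicate 1 to 144.7 CPM in 21-day stress replicate 2, a range of 1.27-fold, with a mean of 132 CPM and a coefficient of variation of 6.52% over the 12 libraries. The same coefficient was 89.6% for the 643-base transcript and 83.9% for the 657-base transcript, whose CPM values ranged over 9.16-fold. By group the sum was 130.2 ± 14.5 CPM in control, 133 ± 6.24 in 3-day stress, 132 ± 3.67 in 14-day stress and 132 ± 11.6 in 21-day stress (SD, n = 3 each). These are 1.02-fold, 1.01-fold and 1.01-fold of the control mean after 3, 14 and 21 days. On this scale the group means of the sum differed by less than the SD within the control group.

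On the TPM scale, which divides by effective length and so allows levels to be compared between transcripts, the 643-base transcript was at 295 to 382 TPM in control, 314 to 413 in 3-day stress and 389 in 14-day stress replicate 3. The 657-base transcript was at 60.8 to 85.5 TPM in control, 50.4 to 107 in 3-day stress, 60.4 in 14-day stress replicate 3, and 429 to 467 in the 5 libraries in which the 643-base transcript was at 0. The sum of both lay above 98.8% to 99.1% of all transcripts of the same library, so the pair was abundant in every animal. Summed TPM was 419.6 ± 36.6 in control, 439 ± 22.3 in 3-day stress, 459 ± 8.69 in 14-day stress and 442 ± 12.8 in 21-day stress (SD, n = 3 each). These are 1.05-fold, 1.09-fold and 1.05-fold of control, against 1.02-fold, 1.01-fold and 1.01-fold in CPM. The mean effective length of the 657-base transcript was 341, 342, 314 and 311 bases in the same 4 groups. A smaller divisor gives a higher TPM for the same count, so summed TPM is not a like measure across the groups.

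The share of the 643-base transcript in the estimated counts of both is given with 95% Wilson intervals, which cover counting error only. It was 76.8% (75.3 to 78.2), 85.2% (84.0 to 86.4) and 84.0% (82.8 to 85.2) in control replicates 1 to 3. It was 85.7% (84.5 to 86.8), 73.7% (72.3 to 75.0) and 88.7% (87.7 to 89.7) in 3-day stress replicates 1 to 3, and 85.9% (84.6 to 87.1) in 14-day stress replicate 3. Within the control group and within the 3-day stress group the lowest share lay outside the intervals of the other replicates, so the estimated split also varied by more than counting error where both transcripts were present. The error of the estimation that divides the reads is not part of these intervals.

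In 14-day stress replicate 1 the share was 0 of 3328 estimated counts, which allows a share of up to 0.0901%, and in replicate 2 it was 0 of 3762, which allows up to 0.0797%. In the 21-day stress replicates the limits were 0.0957%, 0.0772% and 0.0969%. The 95% Wilson intervals of these 5 libraries reached up to 0.0988% to 0.124%. These limits and intervals cover counting error only. The shares thus ran from 73.7% to 88.7% in 7 libraries and were 0 in the other 5.

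**Figure D2:**
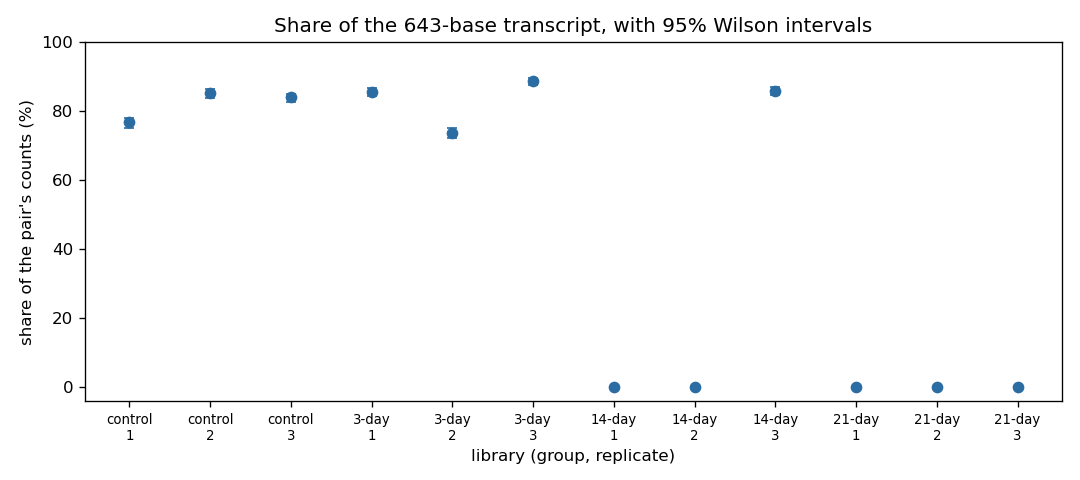
Share of the 643-base transcript in the estimated counts of both transcripts, in percent (linear axis from 0), for each library, with 95% Wilson intervals as bars that cover counting error only. The 3 control libraries, the 3 libraries of the 3-day stress group and 14-day stress replicate 3 sit between 73.7% and 88.7%, and the other 5 libraries sit at 0.

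The contrast of 3-day stress with control was not part of the choice and could be tested. edgeR's quasi-likelihood test called 0 of 21253 transcripts at a Benjamini-Hochberg adjusted p under 0.05 in this contrast, which is 0%, with 852 at an unadjusted p under 0.05 and 39 called by DESeq2. For the 643-base transcript the log2 fold change was 0.04 (SE 0.14, edgeR adjusted p = 0.993), and for the 657-base transcript it was -0.02 (SE 0.28, edgeR adjusted p = 0.999). For the sum it was 0.03 (SE 0.0857, edgeR adjusted p = 0.992). None of these differences was larger than the spread between replicates, and the larger error of the 657-base transcript came with its 33.7 CPM in 3-day stress replicate 2.

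The mean share of the 643-base transcript was 82.7% ± 7.97 after 3 days and 82.0% ± 4.57 in control (SD, n = 3 each). The difference of 0.69 percentage points gave p = 0.8 in an exact two-sided permutation test. With 3 libraries against 3 this test cannot go below 0.1.

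The contrast of 21-day with 14-day stress lay inside the chronic libraries, whose counts of each member were used in the choice, so the members are described there without a test. In that contrast the log2 fold change of the 657-base transcript was 0.46 (SE 0.61), and it was -0.02 (SE 0.0881) without 14-day stress replicate 3, so that library set its direction and most of its error. The 643-base transcript was at 0 in 5 of the 6 libraries and did not pass the filter on low counts. Its mean share was 28.6% ± 49.6 after 14 days and 0 after 21 days (SD, n = 3 each), which rests on 14-day stress replicate 3 alone, as the other libraries were all at 0.

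The sum of both members between 21 and 14 days is also described without a test. In the 5 libraries in which the 643-base transcript was at 0, the sum was the count of the 657-base transcript. Those counts were used in the choice, so a test of the sum would not be independent of it. For the whole table in this contrast, edgeR called 0 of 21230 features at an adjusted p under 0.05, again 0%. There were 651 at an unadjusted p under 0.05 and 20 called by DESeq2. For the sum the log2 fold change was -0.0052 (SE 0.0714).

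For the contrast of 21-day stress with control, which the choice used, the background in the whole table was as follows. Of 22176 transcripts that passed the filter on low counts over all libraries, 12.5% were higher in every 21-day library than in every control library, as was the 657-base transcript, and 9.44% were lower in every one, as was the 643-base transcript. Non-overlap between these groups was thus common among all transcripts, and nothing is read from it for the pair.

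The decimals of the estimated counts were also compared between the members, since a count that is not whole includes part of at least some reads. In the 7 libraries in which the 643-base transcript was above 0, neither transcript had a whole count in any library, taken as lying within 0.01 of an integer. Their sum was whole in 5 of these 7 libraries. In control replicate 1, for instance, 2439.94 and 738.059 added up to 3178, and in 3-day stress replicate 2, 2806.83 and 1003.17 added up to 3810.

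In the 5 libraries in which the 643-base transcript was at 0, the 657-base transcript had a whole count by itself in 3. Over all 12 libraries the sum was whole in 8, and in the other 4 it lay 0.359 to 0.409 from an integer. By comparison, 48.8% to 50.6% of all transcripts with at least 100 counts had a whole count in a given library. When each of the 31714 other transcripts was added to the 643-base transcript in turn, the best that any reached, other than the 657-base transcript, was a whole sum in 3 of the 7 libraries, reached by 4 transcripts. This search was added after the sums had been seen. A transcript with a whole count in a library, 0 included, could not give a whole sum there, so part of this comparison was settled beforehand. Whether reads were divided between these transcripts was not tested, since no sequences of the annotation were used here.

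**Figure D3:**
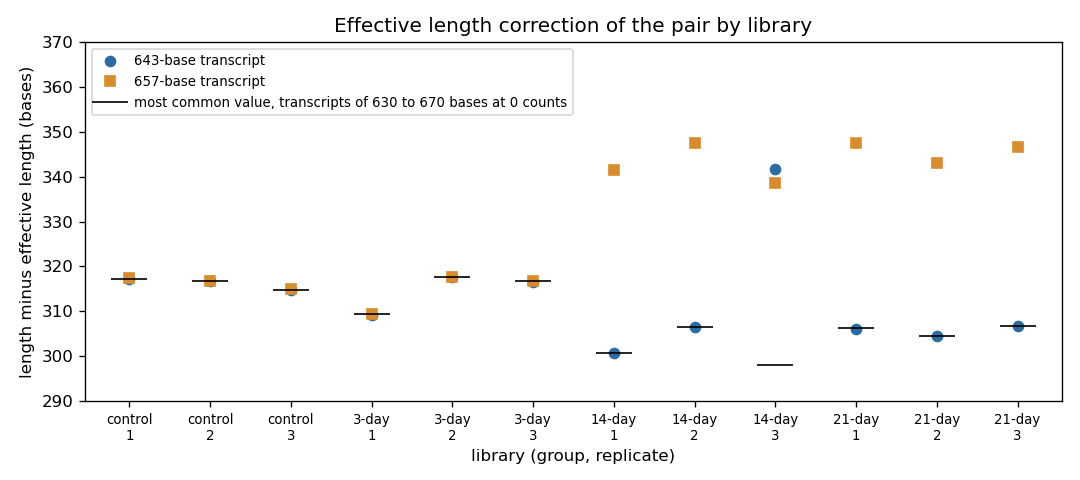
Length minus effective length, in bases, of the 643-base and the 657-base transcript in each library, with a line at the most common value among transcripts of 630 to 670 bases that had 0 counts. Both members lie on the line in the control and 3-day stress libraries, the 657-base transcript lies above it in all 6 libraries of the 14-day and 21-day stress groups, and the 643-base transcript lies above it only in 14-day stress replicate 3.

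The deposited effective lengths, by which the counts are divided to give TPM, differed between the libraries in a way that ran with the groups. An effective length is the length less a deduction for fragments that cannot start near the end, and it can also be adjusted for sequence-dependent bias. In the control and 3-day stress libraries the deduction was 309 to 318 bases for both members, the most common value among transcripts of similar length at 0 counts in the same library. In the 14-day and 21-day stress libraries the 657-base transcript had a deduction of 338.7 to 348 bases, against 298 to 307 for transcripts at 0 counts.

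The 643-base transcript had the deduction of transcripts at 0 counts in the 5 libraries in which it was at 0, with 300.6 to 307 bases, and 342 bases in 14-day stress replicate 3. In 14-day stress replicate 3 the 657-base transcript thus had a deduction like that of the other chronic stress libraries, although its count lay with the control and 3-day stress libraries. The deduction of the 643-base transcript in that library was the largest it had in any of the 12.

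A deduction other than that of transcripts at 0 counts was not particular to the pair. Among transcripts of 630 to 670 bases with at least 100 counts, 35 of 125 to 49 of 134 per library in control and 26 of 124 to 42 of 128 in 3-day stress had the deduction of transcripts at 0 counts. In the 14-day stress libraries it was 12 of 120 to 20 of 124, and in the 21-day stress libraries 19 of 125 to 21 of 126. A difference in how the tables of the early and the late groups were made cannot be told apart from the groups themselves, and its part in the counts of the pair was not tested.

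The members stood far from each other in the deposited tables, with the 657-base transcript at row 5843 and the 643-base transcript at row 22674. The 3 rows before and after each member had Pearson r between -0.77 and 0.35 with that member over the 12 libraries on the log2(CPM + 1) scale, so the nearest rows did not share the pattern.

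Among 16963 transcripts with a mean of at least 50 estimated counts, each member was the transcript least like the other, with Pearson r = -0.99 over the 12 libraries. These libraries share animals and groups, and r is given as a description with no p. The pair was chosen for opposite values in the chronic stress libraries, so a strongly negative r followed from the choice. The next lowest values for the 643-base transcript were -0.96 for ENSRNOT00000061219.2, -0.95 for ENSRNOT00000076979.1, -0.94 for ENSRNOT00000007572.7 and -0.93 for ENSRNOT00000050734.4. The highest were 0.94 for ENSRNOT00000078354.1, 0.93 for ENSRNOT00000003787.7, and 0.92 for ENSRNOT00000039523.6, ENSRNOT00000007110.6 and ENSRNOT00000014027.5. In all, 16 transcripts had r under -0.9 and 11 had r over 0.9.

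For the 657-base transcript the next lowest values were -0.92 for ENSRNOT00000041750.4, ENSRNOT00000014027.5 and ENSRNOT00000078354.1 and -0.91 for ENSRNOT00000067902.3. The highest were 0.94 for ENSRNOT00000087602.1 and ENSRNOT00000076979.1, 0.92 for ENSRNOT00000061219.2 and ENSRNOT00000050734.4 and 0.91 for ENSRNOT00000086104.1. Here 8 transcripts had r under -0.9 and 10 had r over 0.9. On the log2(TPM + 1) scale 5 of the 10 transcripts named for the 643-base transcript were among its 10 again, and 7 of 10 for the 657-base transcript.

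The likeness was in order and not in size. None of these other transcripts ranged over more than 2.49-fold in CPM between its lowest and highest library, and none was at 0 in any. ENSRNOT00000078354.1, the most like the 643-base transcript, was at 87.7 to 90.0 CPM in control and 76.2 to 87.4 in 3-day stress. It was at 53.2 to 67.3 CPM in 14-day stress, where replicate 3 was the highest, and 45.0 to 51.2 in 21-day stress. ENSRNOT00000076979.1, which ran the other way, was at 3.74 to 4.52 CPM in control, 4.09 to 4.56 in 3-day stress, 4.97 to 6.86 in 14-day stress, where replicate 3 was the lowest, and 7.14 to 8.38 in 21-day stress. For both of these transcripts, 14-day stress replicate 3 lay nearest to the control and 3-day stress libraries within its group. Both were picked by their r to the 643-base transcript over these same libraries. That choice favours such a position of replicate 3, so nothing separate is read from it.

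**Figure D4:**
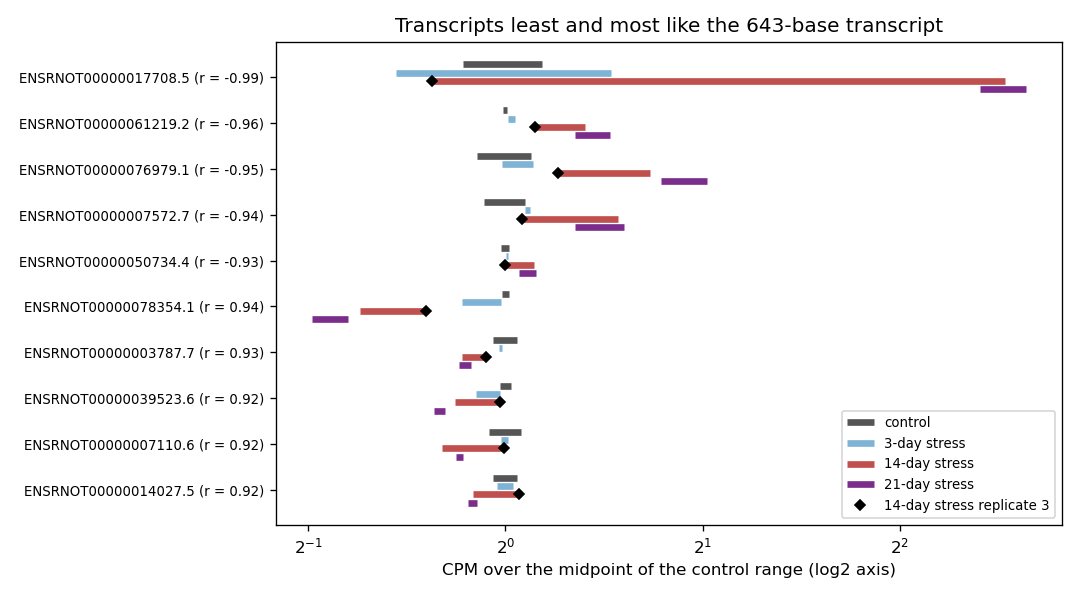
CPM of the 10 transcripts least and most like the 643-base transcript, as the range over the 3 libraries of each group divided by the midpoint of the control range (log2 axis), with 14-day stress replicate 3 as a diamond and Pearson r of log2(CPM + 1) over the 12 libraries beside each name. The 657-base transcript, at the top, covers a range of 9.16-fold, and the other 9 transcripts each cover 2.24-fold or less.

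Over the whole table, 14-day stress replicate 3 was not closer to control. With the pair left out, its log2(CPM + 1) values over 22174 transcripts were nearest to 14-day stress replicate 2 (r = 0.9893), 21-day stress replicate 2 and 14-day stress replicate 1. Control replicate 1 stood furthest from the rest, with a median r of 0.973 to the other libraries, followed by 21-day stress replicate 1 at 0.981, and the other 10 had median r of 0.985 to 0.989. By median r, the library that broke the pattern of the pair in its group was thus not one of those that stood apart. It was at the end of the range on other measures. It was the smallest library, with 23908048 estimated counts, and its deduction for transcripts at 0 counts was the lowest, at 298 bases.

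The rule that describes the 643-base transcript was also applied to the whole table, as a description. With 0 counts in at least 5 of the 6 libraries of the 14-day and 21-day stress groups and a mean of at least 50 in control, 6 transcripts were found, itself included. This number depends on the limits, and it was 37 with 3 or fewer counts in place of 0 and 29 with a control mean of at least 10. The other 5 were ENSRNOT00000073717.3, ENSRNOT00000067297.1, ENSRNOT00000083154.1, ENSRNOT00000076143.2 and ENSRNOT00000057641.5. They had 254 to 559 counts in control replicate 1 and at most 2.37 in control replicates 2 and 3, so that library alone brought each of them over the threshold. In 3-day stress replicate 1 they had 11.4 to 60 counts, against at most 4.07 in 3-day stress replicates 2 and 3. With the 3-day stress libraries in place of control, only the 643-base transcript was found.

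Transcripts that were at 0 in some library and at 100 or more in another numbered 187. By its highest count the 643-base transcript was at rank 3 among them, and 4 of the 187 had at least 100 counts in every control library. None of the others was at 0 in the same 5 libraries and in no other. A transcript within 10 rows with r under -0.9 was found for 9 of them, and a transcript anywhere in the table with r under -0.9 for 118. With limits chosen after the data had been seen, a range of at least 3-fold for each transcript and of at most 1.5-fold for their sum, 1 pair remained, which was this one.

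Known markers of germ cells were compared with the pair, since the study used them to follow cell populations. Of 578 markers, 425 could be matched to a single transcript by their counts, and neither member was among them. The summed CPM of 6 markers of spermatogonia was 739 to 853 in control, 728 to 733 in 3-day stress, 624 to 710.3 in 14-day stress and 629 to 661 in 21-day stress. For 135 markers of spermatocytes it was 31570 to 36387, 33662 to 34899, 32910 to 34386 and 31572 to 34798. For 284 markers of spermatids it was 61553 to 74658, 62409 to 67278, 70343 to 75938 and 72995 to 84805. The spermatogonial sums of the 14-day and 21-day stress groups lay under those of control and 3-day stress. The spermatid sums of both lay above those of 3-day stress and overlapped with control, and the spermatocyte sums of all 4 groups overlapped. The part of cell composition in the counts of the pair was not tested.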

How the data were processed

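RNA of 12 rat testis libraries was analysed, 3 in each of the groups control and 3-day, 14-day and 21-day stress, as the sample labels give them. The authors deposited 1 table per library with a length, an effective length, an estimated count and a TPM value for each transcript. Per the methods, reads were trimmed with Trimmomatic, aligned to Rnor_6.0 with HISAT2 and counted with HTSeq, without versions. That route gives whole counts per gene, while the estimated counts deposited here belong to transcripts and are partly fractional. The tool that made them is not given in the sources used here, so the way in which it divides reads between similar transcripts is unknown and the split within the pair is uncertain.

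The pair and all lists were chosen with earlier results of these data known. Estimated counts were rounded and fitted over the whole table with edgeR 4.0.16 in R 4.3.3 (TMM, filterByExpr, glmQLFit, glmQLFTest) on the 6 libraries of each contrast, with Benjamini-Hochberg adjustment and a threshold of 0.05. The SE is the log2 fold change divided by the square root of the F statistic. DESeq2 1.42.0 was an alternative, as were RLE factors, total counts, no filter, a fit of all libraries, a replicate block and leaving out each library. The scripts were tested on simulated data. Shares and levels were computed without rounding in Python 3.11.15 (pandas 2.3.3, NumPy 2.4.6, SciPy 1.17.1). Named transcripts are the members, the 5 with the highest and the 5 with the lowest r to each member, those sharing the selection rule of the 643-base transcript, and 3 testis markers. Other assays of the study (staining, RT-qPCR, histology) were not analysed here.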

Additional observations from a re-analysis of the deposited data

How the results depend on the processing

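For 3-day stress against control, the lowest edgeR or DESeq2 adjusted p of the model alternatives was 0.886, for the sum without control replicate 1. The alternatives for the share in this contrast had exact permutation p-values of 0.2 or more. They could not have gone below 0.1, so they say nothing on stability. Between 21 and 14 days the alternatives rest on counts used in the choice, so only their effect sizes are given. Of the 76 alternatives of both contrasts, 60 for models and 16 for the share, 58 kept the direction. Another 17 changed its sign and 1 gave a difference of 0, all around differences that were not called or not tested. With scaling by the total count alone, the log2 fold change of the 657-base transcript after 3 days was 0.0064, and with RLE factors that of the sum between 21 and 14 days was 0.0012.

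Leaving out each library in turn, the log2 fold change of 3-day stress against control ran from -0.083 to 0.14 for the 643-base transcript, from -0.41 to 0.19 for the 657-base transcript and from -0.053 to 0.097 for the sum. The difference in share ran from -2.33 to 5.21 percentage points. For 21-day against 14-day stress the values ran from -0.020 to 0.80 for the 657-base transcript, with the negative value only without 14-day stress replicate 3, and from -0.077 to 0.051 for the sum. The difference in share ran from -43.0 to 0 percentage points. An arm of 2 libraries was fitted in each case.

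Deviations from the group means were correlated between libraries of the same replicate number. For replicates 1 to 3, r was 0.332, 0.0595 and 0.0449 between 3-day stress and control. Between 21-day and 14-day stress it was 0.0411, 0.0838 and -0.128. Only replicate 1 of 3-day stress against control was above the limit of 0.1 set for pairing, and whether those libraries are linked was not tested. With the replicate block the log2 fold changes after 3 days were 0.04 (643-base), -0.09 (657-base) and 0.03 (sum), and no call changed. Between 21 and 14 days they were 0.84 (657-base) and -0.0083 (sum), as a description.

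The 6 transcripts sharing the rule of the 643-base transcript became 37 with 3 or fewer counts in place of 0 and 29 with a control mean of at least 10. The 187 transcripts at 0 in some library and at 100 or more in another became 22 with at least 500 and 307 with 3 or fewer counts in the lowest library. Without 14-day stress replicate 3, an alternative added after seeing the data, the 14-day mean CPM was 0 for the 643-base and 134 for the 657-base transcript. The members held 428 estimated counts or more wherever they were above 0, and whether depth or the number of libraries limits these contrasts was not tested.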
